A study of Mus musculus with 2 samples.

Results

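The genes of oxidative phosphorylation were followed in single bone marrow cells that carried E-cadherin on their surface. They were taken by symbol: every gene whose name starts with Nduf, Uqcr, Atp5, Cox4, Cox5, Cox6, Cox7, Cox8, mt-Nd, mt-Co, mt-Cytb or mt-Atp, together with Sdha, Sdhb, Sdhc and Sdhd, and without pseudogene entries. This gave 106 of 31053 listed genes, of which 93 are encoded in the nucleus and 13 in the mitochondrial genome. Atp5o is listed under a pair of identifiers, one of which had 0 UMIs. The study sorted bone marrow cells of FVB mice into an E-cadherin+cKIT+ and an E-cadherin+cKIT- population, and each was sequenced as 1 library of the droplet-based 10x 3' assay. The study's text calls the sorted animals wild-type, whereas a legend names Vav-iCre;mTmG animals, which carry the Cre recombinase under the blood-cell Vav promoter and a fluorescent reporter. The labels give only the strain, and neither library is split by animal in the files. cKIT is the receptor for stem cell factor, present on haematopoietic progenitors and mast cells. After the study's own filter 6479 E-cadherin+cKIT+ and 3662 E-cadherin+cKIT- cells remained. Ages and sexes of the animals are not in the labels.

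Oxidative phosphorylation runs through a chain of protein complexes of the inner mitochondrial membrane: complex I takes electrons from NADH, complex II from succinate, complex III passes them on to cytochrome c, complex IV hands them to oxygen, and ATP synthase uses the resulting proton gradient. Most subunits are encoded in the nucleus and imported, whereas a small core of complexes I, III, IV and ATP synthase is encoded in mitochondrial DNA and transcribed there from long polycistronic transcripts. The nuclear and the mitochondrial transcripts are therefore made by separate machineries, and they are given separately here. Basophils, the main cells of these sorts by their genes, are granulocytes that carry the proteases Mcpt8 and Prss34, and their progenitors divide in the bone marrow.

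Each library was 1 sample, so no difference was tested against a spread between replicates. All intervals are 95% exact Poisson intervals of summed UMIs or exact binomial intervals of their ratios, and they cover counting error only. Levels are given as CPM, a gene's UMIs per 1000000 UMIs of the cells summed. A UMI tags 1 captured molecule at its 3' end, so CPM was not divided by gene length. The libraries held 91108781 and 22869169 UMIs, and the median cell had 13039 UMIs in the E-cadherin+cKIT+ and 4416.5 in the E-cadherin+cKIT- library. By the study's methods the cKIT- library also had fewer reads, in total and per cell. The part of this sequencing depth in the UMI numbers was not tested. The sorted markers were in the direction of the labels for Kit, with 37.1 CPM in cKIT+ and 0.875 CPM in cKIT- cells, and Cdh1, which encodes E-cadherin, was at 62.8 and 193 CPM. Basophil genes were abundant in both, with Prss34 at 11081 and 40691 CPM and Mcpt8 at 11085 and 26187 CPM. The libraries shared 10 cell barcodes.

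The first comparison asked how the cKIT+ and the cKIT- sorts differ in these genes. Nuclear transcripts of oxidative phosphorylation made up 24679.9 CPM (24648 to 24712) of all UMIs in the cKIT+ and 20655 CPM (20596 to 20714) in the cKIT- library, which is 1.19-fold (1.19 to 1.20). Mitochondrial transcripts went the other way, with 34273 CPM (34235 to 34311) in cKIT+ and 39623 CPM (39541 to 39705) in cKIT- cells, a ratio of 0.865 (0.863 to 0.867). Across the 80 nuclear genes with a mean of 20 CPM or more, 71 had the higher level in cKIT+ cells and 9 in cKIT- cells, and the median ratio was 1.21. The 13 mitochondrial genes had a median ratio of 0.884, with 5 above 1 and 8 below. The median over all 5568 genes at that level was 0.965.

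Both differences depended on which cells were set against each other. Within each library the nuclear level was higher in cells with more UMIs: over 4 bins of equal cell number, from the fewest to the most UMIs, it was 18357, 21753, 24557 and 27178 CPM among cKIT+ cells and 15646, 17452, 20016 and 22845 CPM among cKIT- cells. Between cells of 8000 to 16000 UMIs, 2711 in the cKIT+ and 986 in the cKIT- library, the nuclear ratio was 1.01 (1.01 to 1.02), at 22595 and 22341 CPM. It was 0.960 in cells of 4000 to 8000 UMIs and 0.986 in cells of 2000 to 4000 UMIs. Over all kept cells of these ranges the nuclear ratio was thus at most 1.01. Cells in no lineage gate had a higher nuclear level in cKIT+ from 8000 UMIs, at 23277 and 22365 CPM, and from 4000, at 20259.5 and 19567 CPM. From 2000 UMIs they had 16657 and 16769 CPM. The mitochondrial ratio over all kept cells was 0.832 and 0.876 in the ranges from 8000 and from 4000 UMIs and 1.46 in the range from 2000 UMIs. It was 1.04 when every cell had the same weight, which is the opposite direction from the ratio of the sums. Among cells in no gate the mitochondrial levels were 34438 and 40231 CPM from 8000 UMIs. They were nearly level from 4000, at 39987 and 39751 CPM, and 69083 and 31930.4 CPM from 2000. Of the cKIT+ cells 165 had over 10% mitochondrial UMIs, as had 33 of the cKIT- cells. Their part in the mitochondrial ratio was measured by leaving them out, which gave 0.852.

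Among the nuclear parts of the complexes, the sorts differed least in complex II, the succinate dehydrogenase that also belongs to the citrate cycle, at 393 CPM in cKIT+ and 382 CPM in cKIT- cells, a ratio of 1.03. The 7 core subunits of complex I, which carry its flavin and iron-sulphur clusters, summed to 880.5 and 640.3 CPM, a ratio of 1.38, and all 7 were higher in cKIT+ cells. Its 29 accessory subunits, which lie around the core, summed to 6118 and 5221 CPM, a ratio of 1.17. The nuclear subunits of complex III had a ratio of 1.27, with 8 of 8 higher in cKIT+ cells, those of complex IV 1.15, with 13 of 13 tested higher, and those of ATP synthase 1.23, with 14 of 15 tested higher.

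Between cells of 8000 to 16000 UMIs the order of the complexes changed. The ratio stayed above 1 for the complex I core at 1.12 (1.09 to 1.15) and for complex III at 1.14 (1.13 to 1.16). It was 0.980 for the complex I accessory subunits, 0.976 for complex IV and 1.03 for ATP synthase. Complex II was lower in cKIT+ cells, at 0.895 (0.865 to 0.927). The mitochondrial subunits of complex IV, mt-Co1, mt-Co2 and mt-Co3, had 0.809 in all cells and 0.803 in that range.

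**Figure D1:**
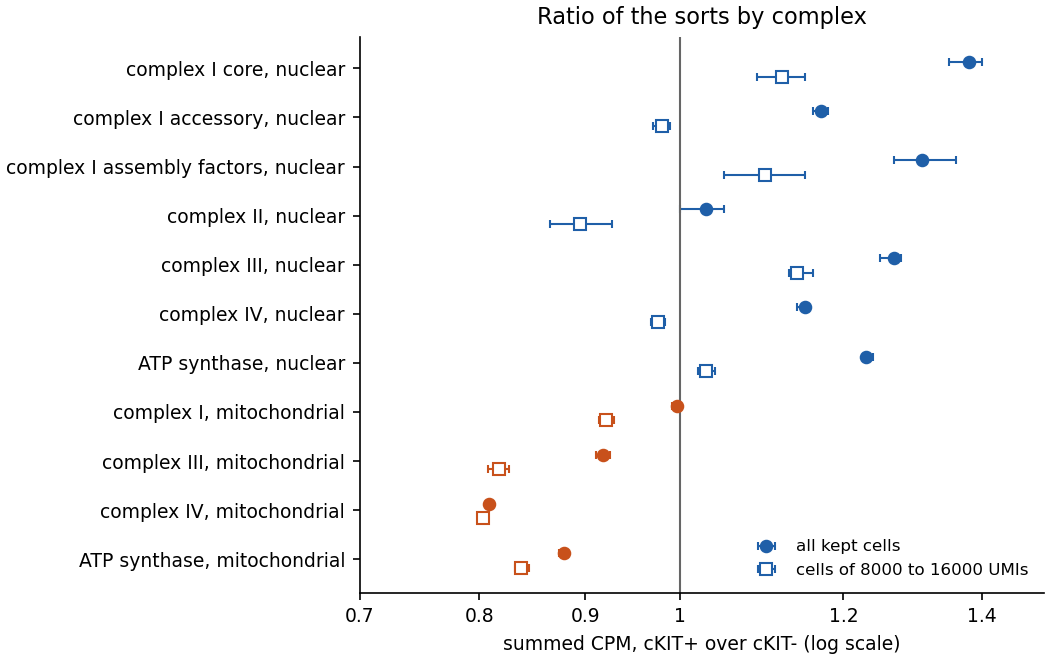
Ratio of the summed CPM of each complex in the cKIT+ over the cKIT- library on a log axis, for all kept cells and for cells of 8000 to 16000 UMIs alone, with 95% counting intervals as bars, nuclear parts in blue and mitochondrial parts in orange. Most nuclear complexes move toward 1 in that range, which matches the cells by UMI number only (complex IV from 1.15 to 0.976). The mitochondrial part of complex IV stays near 0.8 (0.809 and 0.803).

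Single genes were read at a ratio of 1.5. Of the 80 nuclear genes 11 reached it toward cKIT+, as did 3 of the 13 mitochondrial genes, together 14 of 93 tested, beside 13.9% of all genes tested. In the other direction 1 of 93, the mitochondrial gene mt-Nd3, was past that ratio, beside 18.8% of all genes. The share called toward cKIT+ was thus close to that of all genes, and the share called toward cKIT- was far smaller. The 13 members that did not reach a mean of 20 CPM were all nuclear.

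The highest nuclear ratio was that of Ndufaf4, an assembly factor of complex I, with 38.6 CPM in cKIT+ and 14.7 CPM in cKIT- cells, or 2.63. Another assembly factor, Ndufaf2, was at 29.1 and 13.5 CPM, a ratio of 2.15. These were not common to the group, since Ndufaf3 was at 43.7 and 55.1 CPM, a ratio of 0.794, and Ndufaf8, the highest of the assembly factors, at 82.0 and 66.2 CPM. Uqcrq, a small subunit of complex III, had 326 and 173 CPM, a ratio of 1.88. Atp5b, the catalytic beta subunit of ATP synthase, had 603 and 344 CPM, a ratio of 1.75. Ndufa12, an accessory subunit of complex I, had 240.4 and 142 CPM, a ratio of 1.69. The other genes past 1.5 were Uqcr11 at 1.66, the flavoprotein subunit gene Ndufv1 at 1.62, Ndufab1, the acyl carrier protein, at 1.57, Atp5a1, the alpha subunit of ATP synthase, at 1.54, and the isoform genes Atp5g1 and Cox6b2 described below. Cox7b stood just short of the limit, with 384 and 256 CPM, and Ndufab1 has a named processed pseudogene with which its reads could be shared.

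Most of these ratios were smaller between cells of 8000 to 16000 UMIs. Ndufaf4 had 2.20 there and Ndufaf2 1.56, and these stayed past 1.5 together with Atp5g1 and Cox6b2. Atp5b was under it at 1.35, as were Uqcrq at 1.34, Uqcr11 at 1.27, Atp5a1 at 1.26, Ndufa12 at 1.21, Ndufv1 at 1.19 and Ndufab1 at 1.10. With mt-Atp8, mt-Nd4l and mt-Nd5 this left 7 members past 1.5 toward cKIT+, beside 8.99% of all genes tested. Toward cKIT- there were 2, mt-Nd3 and the complex II membrane anchor gene Sdhd, beside 14.0% of all genes.

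The 4 subunits of complex II did not move together. Sdha, the flavoprotein, had 101 CPM in cKIT+ and 77.5 CPM in cKIT- cells, and Sdhc, one of the membrane anchors, 82.8 and 56.4 CPM. Sdhb, the iron-sulphur subunit, had 125 and 149 CPM, and Sdhd, the other anchor, 83.4 and 99.5 CPM. Sdha and Sdhc were thus higher in cKIT+ cells at 1.31 and 1.47, whereas Sdhb and Sdhd were lower at 0.843 and 0.838. Among the other nuclear genes with the lowest ratios were the accessory complex I subunits Ndufa13, at 272 and 311 CPM, and Ndufa6, at 295 and 333 CPM. The highest nuclear members of complex IV, ATP synthase and complex III were nearly level between the sorts or somewhat higher in cKIT+ cells: Cox8a, a small complex IV subunit, had 1022 and 878 CPM, Atp5h of the ATP synthase stalk 729.9 and 640.5 CPM, and Uqcrh, the hinge subunit of complex III, 710.3 and 702 CPM. In complex I the highest accessory gene was Ndufb11, with 379 and 340.4 CPM, and the core genes Ndufv2 and Ndufs7 had 178 and 129 CPM and 177 and 143 CPM.

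**Figure D2:**
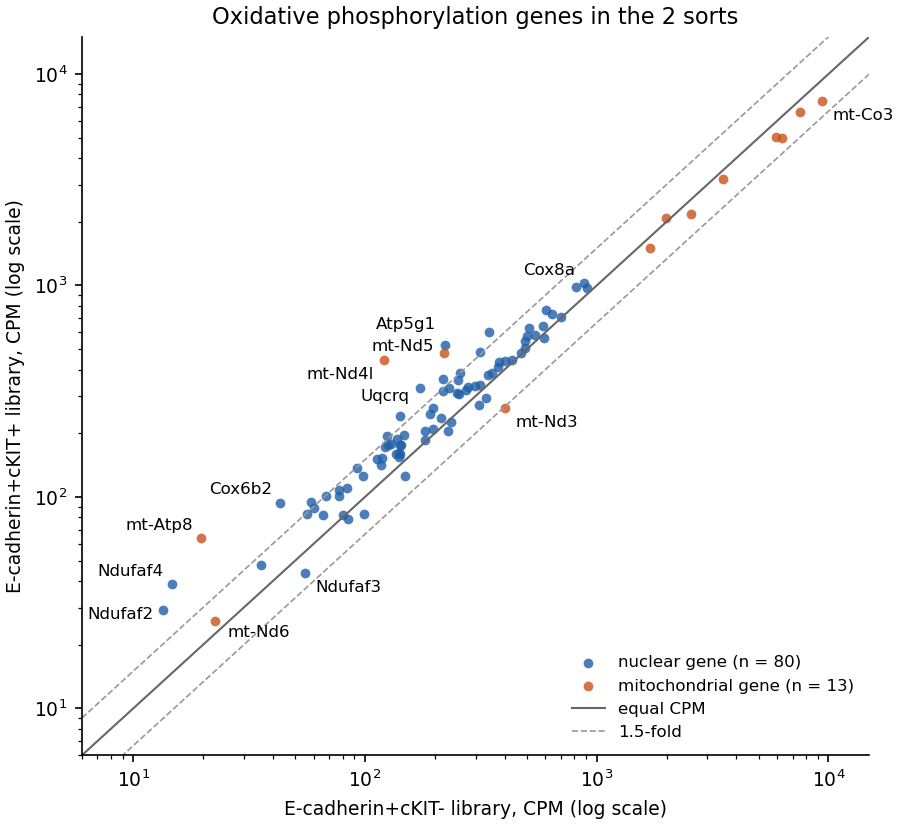
CPM of the 93 members with a mean of 20 CPM or more, with the cKIT- library on the x axis and the cKIT+ library on the y axis, both on log scales, nuclear genes in blue, mitochondrial genes in orange, and dashed lines at 1.5-fold. Most nuclear genes lie a little above the line of equal level, and the mitochondrial genes mt-Nd4l (442 and 121 CPM), mt-Atp8 (63.8 and 19.7 CPM) and mt-Nd5 (477 and 219.8 CPM) stand above it while mt-Co2 and mt-Co3 lie below.

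The mitochondrial genes split within the same polycistronic transcript. mt-Co3, the highest of all members, had 7443 CPM in cKIT+ and 9343 CPM in cKIT- cells, a ratio of 0.797. mt-Co2 had 4979.9 and 6289.8 CPM, a ratio of 0.792, and mt-Co1 5017 and 5932 CPM, a ratio of 0.846. These 3 genes encode the catalytic core of complex IV. mt-Atp6, the proton channel subunit of ATP synthase, had 6582 and 7543 CPM, mt-Cytb of complex III 3202 and 3489 CPM, and mt-Nd4 of complex I 2186 and 2542 CPM. mt-Nd2 had 1506 and 1703 CPM and mt-Nd3 264 and 401 CPM, a ratio of 0.659. In contrast to these 8 genes, mt-Nd1 was nearly level at 2083 and 1996 CPM and mt-Nd6, the only one read from the other strand, had 26.0 and 22.6 CPM.

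The UMIs assigned to 3 mitochondrial genes made up a far larger share of the cKIT+ library. Where along a transcript their reads lay was not tested. mt-Nd4l, a small membrane subunit of complex I, had 442 CPM in cKIT+ and 121 CPM in cKIT- cells, a ratio of 3.64 (3.51 to 3.79). mt-Atp8, a small subunit of ATP synthase, had 63.8 and 19.7 CPM, a ratio of 3.24 (2.95 to 3.58). mt-Nd5 had 477 and 219.8 CPM, a ratio of 2.17 (2.11 to 2.23). All 3 stayed apart between cells of 8000 to 16000 UMIs, at 3.23, 3.01 and 2.31. mt-Nd4l and mt-Atp8 each share their end with the next gene on the same strand, so the reading frames are printed because a read there can belong to either gene. They are from the reference mouse mitochondrial genome (GRCm38, plus strand, mt-Atp8 at chrM:7766-7969 and mt-Nd4l at chrM:9877-10173), a C57BL/6J sequence and not that of the FVB animals. Capitals mark the 43 bases of mt-Atp8 that are also in mt-Atp6 and the 7 bases of mt-Nd4l that are also in mt-Nd4.

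mt-Atp8: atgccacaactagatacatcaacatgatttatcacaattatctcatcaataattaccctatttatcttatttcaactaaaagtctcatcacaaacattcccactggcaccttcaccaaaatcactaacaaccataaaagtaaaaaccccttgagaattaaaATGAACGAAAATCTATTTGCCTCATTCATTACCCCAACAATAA
mt-Nd4l: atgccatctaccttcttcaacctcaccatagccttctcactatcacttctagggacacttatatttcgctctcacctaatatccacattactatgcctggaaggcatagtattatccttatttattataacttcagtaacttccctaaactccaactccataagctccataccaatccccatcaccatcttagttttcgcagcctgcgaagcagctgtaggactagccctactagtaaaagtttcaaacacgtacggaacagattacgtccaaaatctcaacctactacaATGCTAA

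Set against its neighbour, mt-Nd4l had 20.2 UMIs per 100 UMIs of mt-Nd4 in cKIT+ cells and 4.77 (4.59 to 4.95) in cKIT- cells. mt-Atp8 had 0.969 UMIs per 100 of mt-Atp6 in cKIT+ and 0.261 in cKIT- cells. mt-Nd5, which shares no bases with mt-Nd4, had 21.8 and 8.65 per 100 of mt-Nd4, and mt-Nd3 12.1 and 15.8. Within a library the mt-Nd4l value differed much less: over the gated groups described further on it was between 16.5 and 21.3 in cKIT+ cells and between 3.57 and 5.60 in cKIT- cells, and the ranges of the libraries did not overlap. Among cells with little Prss34 it was 20.4 in the cKIT+ and 3.91 in the cKIT- library, and among cells with much Prss34 19.8 and 5.02. The difference thus moved with the library in each group of at least 20 cells, those rich in B-lineage genes and in neutrophil genes included. With 1 library per sort, the sort and the library preparation cannot be told apart here.

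**Figure D3:**
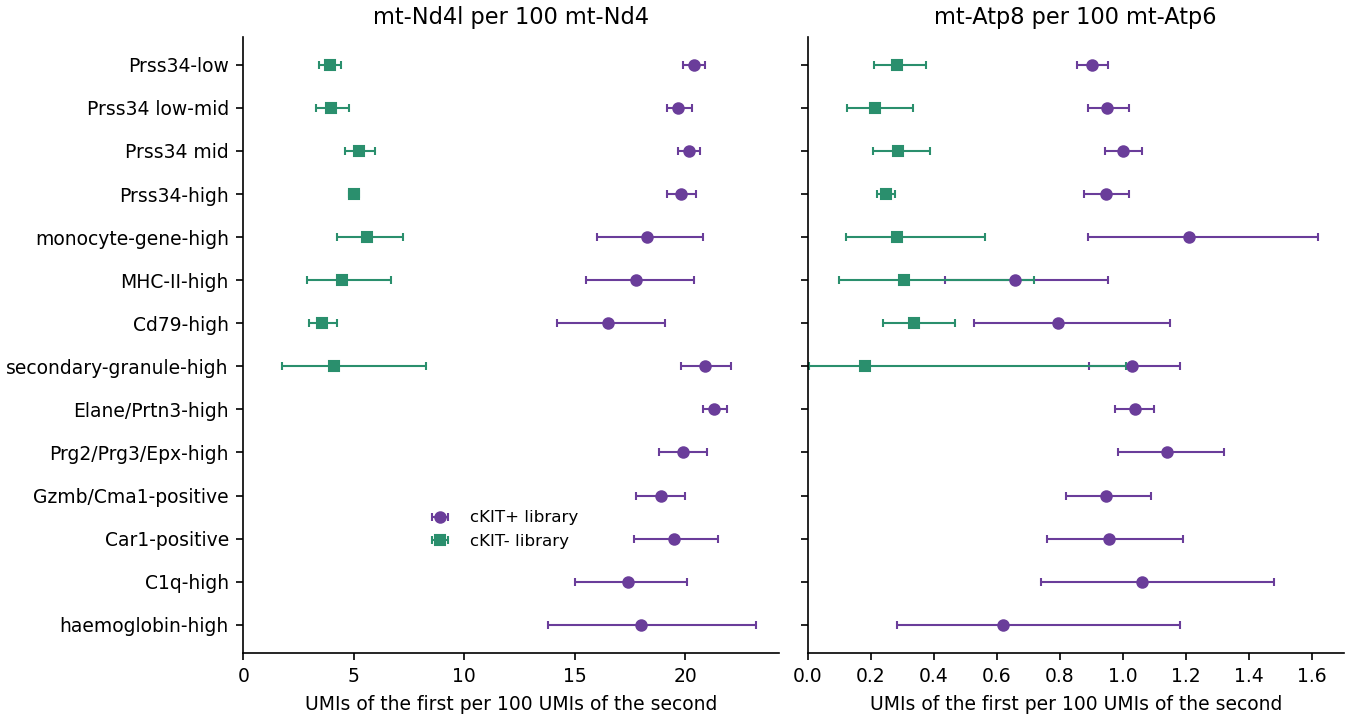
UMIs of one mitochondrial gene per 100 UMIs of its partner, by library and group of cells, with 95% exact counting intervals as bars. The cKIT+ groups lie together near 20 UMIs of mt-Nd4l per 100 of mt-Nd4 and the cKIT- groups near 5, with no overlap between the libraries, whereas for mt-Atp8 per 100 of mt-Atp6 the intervals of the MHC class II and neutrophil-gene groups, which hold few UMIs, overlap.

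Several subunits come as isoforms known from particular tissues. The common forms carried nearly all UMIs: Cox4i1 had 975 CPM in cKIT+ and 911 CPM in cKIT- cells, Cox6a1 339 and 313 CPM, Cox7a2 479.9 and 473 CPM, Cox7a2l 446 and 433 CPM, and Ndufa4 981 and 813 CPM. The lung form Cox4i2 had 21 UMIs in cKIT+ and 0 in cKIT- cells, where a count of 0 allows up to 0.161 CPM. The muscle form Cox7a1 had 35 and 7 UMIs. Cox7b2 and Ndufa4l2 each had 1 UMI in cKIT+ and 0 in cKIT- cells, and Cox8b and Cox8c had 0 UMIs in both.

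The muscle form Cox6a2 was low but not evenly spread. It had 122 UMIs, or 1.34 CPM, in cKIT+ and 74 UMIs, or 3.24 CPM, in cKIT- cells. In cKIT- cells its level was 247 CPM, from 35 UMIs, in the 23 cells rich in MHC class II transcripts and 51.9 CPM, from 19 UMIs, in the 47 cells rich in monocyte genes, against 0.427 CPM in the cells of no lineage gate. In the cKIT+ library the same groups had 14.5 and 15.7 CPM, from 10 UMIs each, and the cells rich in Cd79 genes had 15.8 CPM in the cKIT+ and 14.3 CPM in the cKIT- library. These gates were chosen without it, and it is named with them because its values stood out once seen.

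Cox6b2 was the one alternative isoform with a sizeable level. It encodes a form of subunit VIb known from testis and had 94.0 CPM in cKIT+ and 43.0 CPM in cKIT- cells, a ratio of 2.19 (2.05 to 2.34), whereas the common form Cox6b1 had 437 and 401 CPM. There were thus 21.5 UMIs of Cox6b2 per 100 of Cox6b1 in cKIT+ cells and 10.7 in cKIT- cells. Cells of 8000 to 16000 UMIs had 90.3 and 54.2 CPM of Cox6b2, a ratio of 1.66 (1.52 to 1.82). Across groups of cKIT+ cells it was 43.0 per 100 (29.7 to 61.3) in the 58 cells rich in haemoglobin transcripts, 38.2 in the 64 Car1-positive cells and 4.67 in the 72 cells rich in Cd79 transcripts, where Car1 marks early erythroid cells and Cd79a and Cd79b B cells.

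The c ring of ATP synthase is built from 1 mature protein that 3 genes encode, and their shares differed between the sorts. Atp5g1 had 522 CPM in cKIT+ and 221 CPM in cKIT- cells, a ratio of 2.36 (2.29 to 2.43). Atp5g2 had 632 and 508 CPM and Atp5g3 247 and 190.0 CPM. Atp5g1 thus made up 37.2% (37.0 to 37.5) of the 3 genes' UMIs in cKIT+ and 24.0% (23.5 to 24.6) in cKIT- cells. In the cKIT+ library this share was 45.1% in cells rich in Elane and Prtn3, genes of early granulocytes, and 27.8% in cells rich in C1q genes, which mark macrophages.

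Atp5g1 and Cox6b2 were the only nuclear genes past 1.5 toward cKIT+ both over all cells and between the 650 cKIT+ and 859 cKIT- cells with a high share of both Prss34 and cell-cycle transcripts. There Atp5g1 had 409 and 269 CPM, a ratio of 1.52, and Cox6b2 77.8 and 49.7 CPM, a ratio of 1.57. With mt-Nd4l at 2.85, mt-Atp8 at 2.74 and mt-Nd5 at 1.99, these were 5 members past 1.5 toward cKIT+, beside 3.95% of all genes. mt-Nd3, at 0.543, was the single one toward cKIT-, beside 6.61% of all genes. The sum of the nuclear genes had a ratio of 1.07 in these cells and that of the mitochondrial genes 0.759. They were not matched in UMI number, with medians of 15549.5 in cKIT+ and 10958 in cKIT- cells.

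The stretches before the start of these isoform genes are printed with a comparison, Cox6b1, and with Atp5h, the highest member with an NRF1 match. Each is the 250 bases before the RefSeq start (GRCm38.p6), 5' to 3' on the gene's own strand, with capitals for matches on either strand to the core motif of NRF1, CCGGAAG (for ETS factors), AAGATGGC (for YY1) and CCAAT. Atp5g1 is at chr11:96075632-96075881, Cox6b2 at chr7:4753095-4753344, Cox6b1 at chr7:30626115-30626364 and Atp5h at chr11:115419920-115420169, all on the minus strand. In GENCODE M21 the genes Atp5g1 and Atp5h begin inside these windows, at 96075670 and 115419962, so the last bases printed lie within the annotated gene.

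Atp5g1: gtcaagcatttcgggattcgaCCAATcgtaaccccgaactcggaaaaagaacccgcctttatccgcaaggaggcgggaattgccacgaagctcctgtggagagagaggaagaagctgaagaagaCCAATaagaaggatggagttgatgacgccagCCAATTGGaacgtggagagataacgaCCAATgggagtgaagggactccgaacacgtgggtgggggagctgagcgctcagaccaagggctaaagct
Cox6b2: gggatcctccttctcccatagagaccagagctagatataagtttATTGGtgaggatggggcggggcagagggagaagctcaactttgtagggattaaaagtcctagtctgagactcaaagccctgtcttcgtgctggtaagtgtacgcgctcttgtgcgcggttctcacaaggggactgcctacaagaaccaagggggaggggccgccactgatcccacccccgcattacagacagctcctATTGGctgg
Cox6b1: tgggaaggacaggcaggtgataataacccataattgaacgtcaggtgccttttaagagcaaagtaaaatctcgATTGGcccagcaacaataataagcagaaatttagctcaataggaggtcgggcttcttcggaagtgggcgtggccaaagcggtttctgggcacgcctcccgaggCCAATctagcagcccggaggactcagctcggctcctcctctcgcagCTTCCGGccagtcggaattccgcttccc
Atp5h: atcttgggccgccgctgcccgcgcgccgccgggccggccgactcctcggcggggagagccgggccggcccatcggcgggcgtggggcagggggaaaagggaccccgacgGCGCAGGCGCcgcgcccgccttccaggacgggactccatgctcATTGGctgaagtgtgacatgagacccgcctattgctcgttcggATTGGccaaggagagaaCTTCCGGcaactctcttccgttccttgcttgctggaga

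The Atp5g1 stretch held 5 CCAAT matches, of which a pair on opposite strands overlap, and none of the other 3 motifs, and that of Cox6b2 held 2 CCAAT matches. RefSeq starts were matched for 74 of the 92 nuclear symbols, with 79 windows. The NRF1 motif was in 19.0% of these windows, in 3.74% of all 32851 windows and in 9.90% of the 5616 windows of genes at 20 CPM or more. The ETS letters were in 17.7% of the windows of the oxidative phosphorylation genes and in 16.9% of those of expressed genes, CCAAT in 43.0% and 35.4%, and the YY1 letters in 1.27% and 2.39%. The NRF1 share was thus the one farthest above that of expressed genes, and a match says only that the letters are there.

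The second comparison followed the genes along Prss34, a basophil protease. Cells of no lineage gate were divided by the share of Prss34 in their UMIs into under 0.1%, 0.1 to 1%, 1 to 3% and 3% or more. These are ranges of a share and not cell types, and 282 cKIT+ and 112 cKIT- cells lay within 10% of the upper limit of 3%. In the cKIT+ library the ranges held 1413, 903, 1152 and 917 cells, and nuclear transcripts were at 25213, 24996, 24571 and 23977 CPM. The cKIT- library had 1050, 308, 314 and 1600 cells and 16241, 17792, 20576 and 22092 CPM. The nuclear level thus declined slightly toward high Prss34 in cKIT+ cells and was higher at each step in cKIT- cells, and the libraries came closest at high Prss34.

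Mitochondrial transcripts were at 37937, 36722, 33034 and 30016 CPM along the same ranges of the cKIT+ library. In the cKIT- library they were at 29692, 38855, 42041 and 40184 CPM. Prss34-high over Prss34-low cells had a mitochondrial ratio of 0.791 (0.788 to 0.794) in cKIT+ and 1.35 (1.34 to 1.36) in cKIT- cells, and a nuclear ratio of 0.951 (0.947 to 0.955) and 1.36 (1.35 to 1.37). The mitochondrial direction was thus opposite between the libraries, whereas the nuclear ratio of the cKIT+ library lay near 1 and its direction changed with the processing. These values left out as granulocyte or monocyte progenitors only cells rich in Elane and Prtn3. The gate first chosen also used Mpo and Ctsg, which took 3583 cKIT+ cells with a median of 0.441% Ctsg, and with it the nuclear ratios were 0.950 and 1.32 and the mitochondrial ones 0.765 and 1.30.

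The Prss34-low ends of the libraries held different cells. In cKIT+ cells under 0.1% Prss34 the progenitor receptor Kit was at 48.7 CPM, the chemokines Ccl6 and Ccl9 of mature basophils at 69.4 and 227 CPM, and 35.5% of cells had a high share of cell-cycle transcripts. In cKIT- cells under 0.1% Kit was at 0, Ccl6 and Ccl9 at 6325 and 5238 CPM, and 1 of 1050 cells was high in cell-cycle transcripts. All 10 basophil markers were above 0 in every range, which says little in sums of this many UMIs. In Prss34-low cells Cd200r3 was at 6.29 CPM in the cKIT+ and 665 CPM in the cKIT- library, and Ccr3 at 1.37 and 81.3 CPM. Mcpt8, at 2853 and 2386 CPM, and Cpa3, at 1284 and 1049.6 CPM, went the other way. The Prss34-low cells also held the immunoglobulin transcript Igkc at 2011 and 1348 CPM, and its part in these values was not tested. At high Prss34 the sorts were more alike, with Mcpt8 at 30258 and 35789.7 CPM and 70.9% and 53.7% of cells high in cell-cycle transcripts.

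The number of UMIs per cell moved along with Prss34 in the cKIT- library, where the median was 2894 in Prss34-low and 9154 in Prss34-high cells, against 12721 and 13954 in the cKIT+ library. Within 1 range of UMIs the cKIT- nuclear ratio was 1.16 (1.13 to 1.19) for 2000 to 4000 and 1.17 (1.14 to 1.21) for 4000 to 8000 UMIs, and the mitochondrial ratio 1.54 and 1.16. Between cell-cycle-low cells alone they were 1.18 and 1.48. The cKIT+ nuclear ratio was 1.02 (0.996 to 1.05) for 4000 to 8000 UMIs and 0.978 (0.971 to 0.985) for 8000 to 16000. It thus had no settled direction over these UMI ranges. The cKIT+ mitochondrial ratio was 0.795 and 0.798 there. Among cKIT+ cells with a low share of cell-cycle transcripts the nuclear ratio was 0.920 (0.908 to 0.933). Prss34-high and Prss34-low cells had 21593 and 25215 CPM at a middle share and 24818 and 27126 CPM at a high share.

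**Figure D4:**
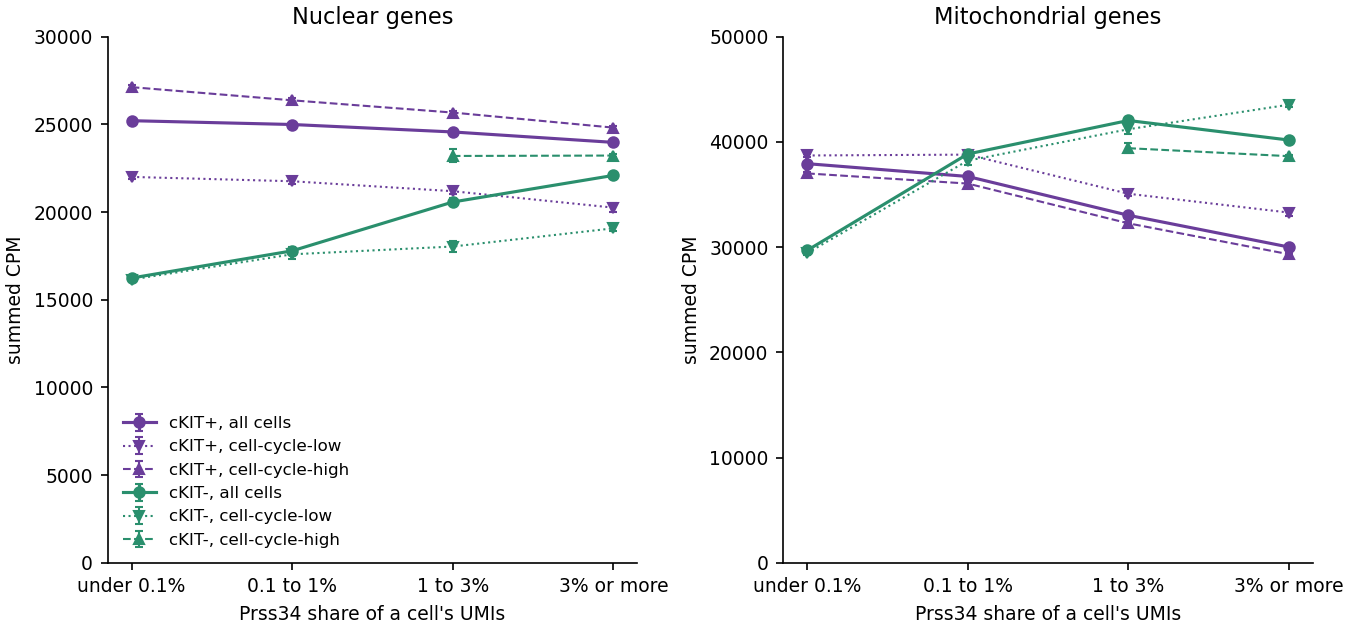
Summed CPM of the nuclear and of the mitochondrial genes along the 4 ranges of Prss34 share in each library, with 95% counting intervals, for all cells and for cell-cycle-low and cell-cycle-high cells apart where at least 20 cells were present. Nuclear transcripts climb from 16241 to 22092 CPM in cKIT- cells and go from 25213 to 23977 CPM in cKIT+ cells, and mitochondrial transcripts run from 37937 down to 30016 CPM in cKIT+ cells.

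In the cKIT- library the nuclear difference along Prss34 spread over most of the genes. Of 78 tested 70 were higher in Prss34-high cells, the median ratio was 1.56 beside 0.912 over all genes, and 47 of the 78 were at least 1.5-fold higher, with 4 mitochondrial genes, beside 19.9% of all genes. Gene counts were not repeated within ranges of UMIs or in cell-cycle-low cells. The summed nuclear ratio was 1.16, 1.17 and 1.18 there, against 1.36 over all these cells. Cox6b2 went from 11.8 CPM in Prss34-low to 51.2 CPM in Prss34-high cells, a ratio of 4.35. Ndufc1, an accessory subunit of complex I, had 43.4 and 152 CPM, and Uqcrq 59.5 and 202 CPM. Ndufa4, which sits in complex IV in spite of its name, had 429 and 960.3 CPM, and Atp5g1 99.0 and 252 CPM, and with it the Atp5g1 share of the c-ring genes went from 15.2% to 25.2%. The mitochondrial genes past 1.5 were mt-Nd1, from 1001 to 2116 CPM, mt-Cytb, from 2106 to 3683 CPM, mt-Nd3, from 254 to 399 CPM, and mt-Nd4l.

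A few subunits ran against this in the cKIT- library. Ndufa6 was the only one at least 1.5-fold lower in Prss34-high cells, with 287 against 479.9 CPM, a ratio of 0.599 (0.564 to 0.636), beside 26.4% of all genes. Uqcrh had 628 and 937 CPM, a ratio of 0.671, although it has 2 named pseudogenes. Cox7a2l, a supercomplex assembly factor, had 385 and 552 CPM. Cox4i1 was nearly level, with 903 and 974 CPM. Complex III, to which Uqcrh gives the most UMIs of its nuclear part, had a ratio of 1.15 for that part, beside 1.48 for the accessory subunits of complex I, 1.34 for the nuclear part of complex IV and 1.36 for that of ATP synthase.

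In the cKIT+ library 0 of 81 nuclear and 0 of 13 mitochondrial genes were at least 1.5-fold higher in Prss34-high cells, beside 10.8% of all genes. Cox6b2, with 76.1 against 121 CPM, and Ndufaf4, with 23.3 against 48.5 CPM, were at least 1.5-fold lower, beside 10.4% of all genes. The median ratio of the nuclear genes was 0.913, beside 0.969 over all genes, and all 13 mitochondrial genes were below 1. Cox6b2 went from 27.4 to 17.7 UMIs per 100 of Cox6b1 in cKIT+ and from 3.61 to 12.0 in cKIT- cells, so the libraries lay much nearer each other at high than at low Prss34. Among the nuclear parts of the complexes the cKIT+ ratios ran from 0.796 for the complex I core to 1.01 for the nuclear part of complex IV.

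The third comparison set cells with a high share of cell-cycle transcripts (0.1% or more of UMIs in 12 genes such as Mki67 and Top2a) against those with a low one (under 0.02%). In the cKIT+ library 2251 cycle-high cells had 25935 CPM and 1267 cycle-low cells 21589 CPM of nuclear transcripts, a ratio of 1.20 (1.20 to 1.21). The mitochondrial genes had 33366 and 37355 CPM, a ratio of 0.893 (0.890 to 0.896). With the gate first chosen these ratios were 1.21 and 0.946. Of 80 nuclear genes 74 were higher in cycle-high cells, with a median ratio of 1.24 beside 1.05 over all genes. The difference was shared by most genes in small amounts, since 3 were at least 1.5-fold higher, beside 9.24% of all genes, and 0 at least 1.5-fold lower, beside 2.69% of all genes.

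The 3 genes were Uqcr10, a small subunit of complex III, with 352 and 221 CPM, Cox7a2 of complex IV, with 527 and 338 CPM, and Ndufb6 of complex I, with 159 and 105 CPM. Cox7a2l, Ndufa6 and Uqcrh ran against the others again, at 423 and 578 CPM, at 272 and 362 CPM and at 686 and 881 CPM. In the cKIT- library the nuclear ratio was 1.31 and the mitochondrial one 1.04. That mitochondrial direction depended on the cells compared. Cycle-high and cycle-low cKIT- cells had 37924 and 46793 CPM at 8000 to 16000 UMIs and 37745 and 40501 CPM at 4000 to 8000. At 2000 to 4000 UMIs they had 60597 and 30647 CPM. Among Prss34-high cKIT- cells the mitochondrial levels were 38651 and 43542 CPM. Of the 1766 cycle-low cKIT- cells 933 were Prss34-low, with 29437 CPM. Cycle-high cells had more UMIs, a median of 17497 against 10268 in the cKIT+ library. Between cKIT+ cells of 8000 to 16000 UMIs the nuclear ratio was 1.13 (1.12 to 1.13), between those of 4000 to 8000 it was 1.11, and between those of 2000 to 4000, 63 and 89 cells, 0.995 (0.951 to 1.04). The mitochondrial ratio in cKIT+ cells was 0.896 in the highest of these ranges, 1.21 in the middle and 2.74 in the lowest. The lowest range had 94469 CPM in its 63 cycle-high and 34416 CPM in its 89 cycle-low cells. All 165 cKIT+ cells with over 10% mitochondrial UMIs were in no lineage gate. Their part in the ratios of these UMI ranges was not tested.

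The last comparison took cells by the marker genes of other lineages, in gates that used no oxidative phosphorylation gene. In the cKIT+ library the nuclear level was highest in the 524 cells rich in Elane and Prtn3, at 29457 CPM (29364 to 29550.2). Next came the 72 cells rich in Cd79 and other B-lineage genes at 29038 CPM, the 71 rich in monocyte genes at 28687 CPM and the 64 Car1-positive cells at 28266 CPM. Their intervals overlap from one to the next, down to that of the Car1-positive cells at 27942 to 28593 CPM. The place of the monocyte-gene cells depended on the cut, as 71 cells lay within 10% of it. With the gates first chosen, halving the gate minimum took their nuclear level from 27674 to 25142 CPM. The 326 cells rich in the eosinophil granule genes Prg2, Prg3 and Epx had 24569 CPM, close to the 24728 CPM of the 4385 cells in no gate.

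Lower nuclear levels were seen in the 325 cells positive for Gzmb or Cma1, genes of mast cell progenitors, at 20517 CPM, the 73 cells rich in C1q genes at 20196 CPM and the 95 rich in MHC class II genes at 19144 CPM. The 486 cells rich in secondary granule genes of neutrophils had 16688 CPM and the 58 rich in haemoglobin 14613 CPM. In these last groups the gate's own genes filled much of the total, a median of 43.1% of UMIs for the granule genes and 61.5% for haemoglobin. The 4 groups with the most nuclear transcripts had median UMIs of 25266, 3176, 6268 and 11592 per cell. The part of the UMI number in the levels of the gated groups was not tested.

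Mitochondrial transcripts had another order. The cKIT+ cells rich in C1q genes had the most, 60016 CPM (59172 to 60869), followed by those rich in Cd79 genes at 42737 CPM, the Car1-positive cells at 39961 CPM and the Elane and Prtn3 cells at 38567 CPM. The neutrophil-gene cells had the least, 18056 CPM, below the haemoglobin-rich cells at 20550.4 CPM. C1q-rich cells thus paired a high mitochondrial level with a nuclear one below that of the ungated cells, at a median of 2879 UMIs per cell. All cKIT+ cells of 2000 to 4000 UMIs together had 53489 CPM of mitochondrial transcripts, and the part of the UMI number in the C1q value was not tested.

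In the cKIT- library 4 gates held at least 20 cells. The 234 cells rich in Cd79 genes had 17707 CPM of nuclear and 70069 CPM (69479 to 70663) of mitochondrial transcripts. With cells past several gates left out these were 21717 and 63092 CPM. The nuclear level thus moved from below to above the 20873 CPM of the ungated cells. The 234 cells had a median of 2715 UMIs, where all cKIT- cells of 2000 to 4000 UMIs had 36581 CPM of mitochondrial transcripts. The 47 monocyte-gene cells had 25973 and 48023 CPM, the 23 MHC class II cells 21170.1 and 62023 CPM, and the 66 neutrophil-gene cells 9201 and 8726 CPM. The MHC class II group fell under 20 cells with the gate minimum doubled or with cells past several gates left out. It had no value there. Among ungated cKIT- cells the levels were 20873 and 38750 CPM. In each of the monocyte, MHC class II and Cd79 gates the mitochondrial level was lower in the cKIT+ than in the cKIT- library, with ratios of 0.739, 0.529 and 0.610, whereas the neutrophil-gene cells had 2.07. The cells of a gate also differed between the libraries. Cd79 cells had a median of 0.0368% MHC class II transcripts in cKIT+ and 2.37% in cKIT-, and 31.9% and 2.99% were cell-cycle-high. Of the neutrophil-gene cells 50.6% and 7.58% were cell-cycle-high, at median UMIs of 12182 and 4194. The part of these differences in the ratios was not tested.

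**Figure D5:**
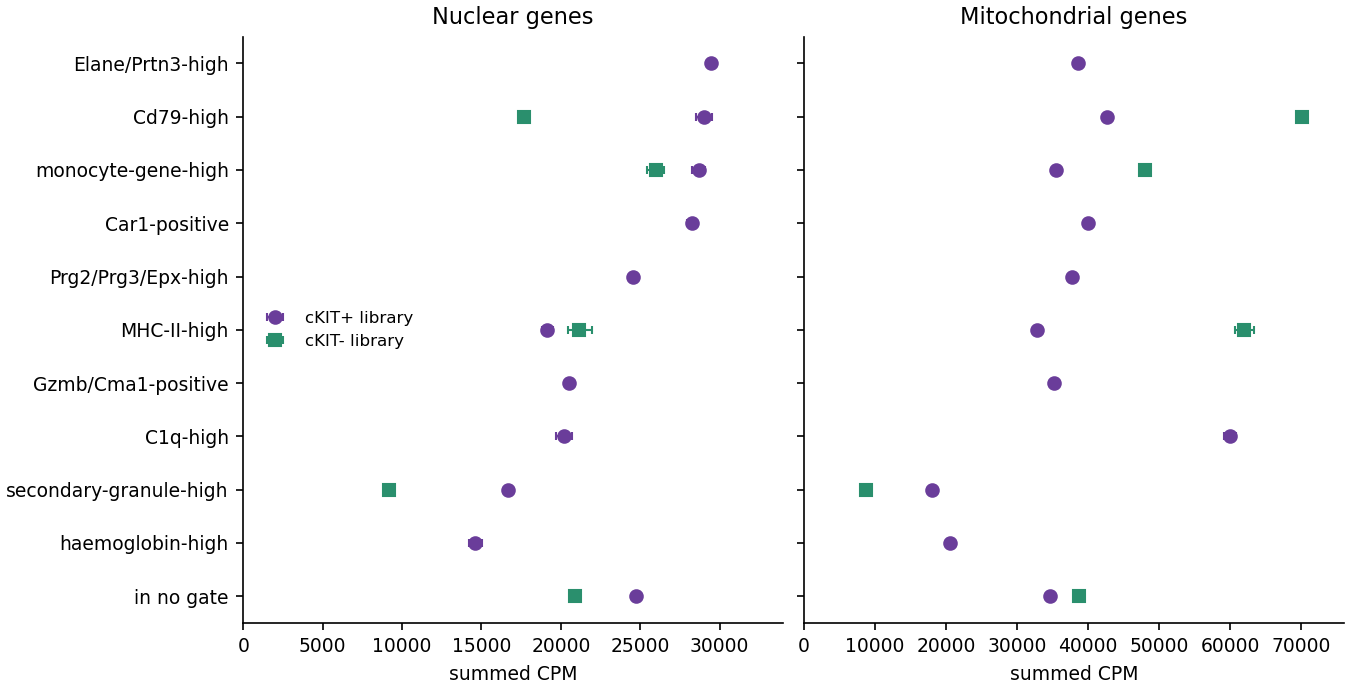
Summed CPM of the nuclear and of the mitochondrial genes in cells taken by lineage markers, by library, with 95% exact Poisson intervals, for groups of at least 20 cells. The Cd79-high cells of the cKIT- library lie farthest right for mitochondrial genes at 70069 CPM, and the neutrophil-gene and haemoglobin-rich cells lie lowest for nuclear genes.

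Other genes of mitochondria and energy metabolism were read as lists beside the subunits, at the same level and ratio. The sorts were compared over all kept cells, and no list was read again within ranges of UMIs. Of 71 genes of the mitochondrial ribosome 26 were past 1.5 toward cKIT+ and 0 toward cKIT-, beside 13.9% and 18.8% of all genes tested, with a median ratio of 1.37 beside 0.965 over all genes. The counts of the other lists are read against the same shares. Of 7 inner-membrane carriers and porins 3 were past 1.5 toward cKIT+: Slc25a4, an ADP/ATP carrier, with 136 and 32.1 CPM, Vdac1, an outer-membrane channel, with 163 and 104 CPM, and Slc25a3, the phosphate carrier, with 608 and 400.3 CPM. Of 13 citrate cycle genes 3 were past 1.5 toward cKIT+ and 1 toward cKIT-, with a median of 1.19, and the isocitrate dehydrogenase gene Idh3g had 144 and 80.5 CPM. Cycs, which encodes cytochrome c, had 70.0 and 55.7 CPM.

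Of 18 assembly factors tested 2 were past 1.5 toward cKIT+ and 1 toward cKIT-, both under the 13.9% and 18.8% of all genes, with a median of 1.04. These were Atpif1, the inhibitor of ATP synthase hydrolysis, with 703 and 331 CPM, Uqcc2, a complex III assembly factor, with 155 and 79.3 CPM, and Cox17, a copper chaperone of complex IV, with 26.6 and 51.7 CPM. Of 6 regulators tested 3 were past 1.5 toward cKIT+, among them Myc with 42.2 and 22.8 CPM and Slirp, which binds mitochondrial mRNA, with 50.4 and 30.6 CPM, while Tfam, which packages mitochondrial DNA, had 54.3 and 45.1 CPM. The transcription factor gene Nrf1, with 27.5 and 36.9 CPM, and Gabpb1, with 29.5 and 35.2 CPM, were lower in cKIT+ cells. Of 16 glycolysis genes 0 were past 1.5 toward cKIT+ and 5 toward cKIT-, beside 13.9% and 18.8% of all genes, with a median of 0.925 beside 0.965. Tpi1 and Hk1 at 1.38 and Pfkl at 1.32 were among those above 1. The glucose transporter Slc2a3 had 24.6 and 87.9 CPM, and the hexokinase gene Hk2 23.3 and 63.6 CPM. Cytosolic ribosomal protein genes, the list with the most UMIs, summed to 268913 and 165578 CPM, with a median ratio of 1.63. Of 79 tested 54 were past 1.5 toward cKIT+ and 0 toward cKIT-, beside 13.9% and 18.8% of all genes.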

How the data were processed

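Bone marrow cells were sorted and sequenced as 1 single-cell library per sort. The files deposited by the authors hold unnormalized UMI counts, which per the labels came from Cell Ranger 3.0.2 and mm10. The labels name the 10x v2 kit and the authors' methods another version. The study's filter was repeated: over genes detected in 40 or more cells, it left out cells in the highest or lowest 1% by genes detected or the highest 1% by UMIs. UMIs were summed over cells and scaled to CPM. Exact Poisson and binomial intervals at 95% were computed with Python 3.11.15, NumPy 2.4.6, SciPy 1.17.1 and pandas 2.3.3. Figures used Matplotlib 3.10.9.

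Genes with a mean of 20 CPM or more over the groups compared were read at a ratio of 1.5, against all genes at that level. On simulated counts for the cKIT+ over cKIT- comparison (5568 genes), 200 of 200 genes changed 2-fold were recovered with 0 false calls. These counts were drawn with Poisson error only and no spread between animals or libraries. The simulation thus checks the counting step and says nothing on how far 2 libraries of 1 sort would differ. Cells of a lineage gate carried a minimum share of UMIs in its markers, and a cell past several gates went to the one with the highest share relative to its minimum. No doublet caller was run, and 354 cKIT+ and 207 cKIT- cells passed several gates. Groups under 20 cells were counted only.

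Named genes were all mitochondrial members, the Sdh genes, the 10 members with the largest ratio in each direction, tissue isoforms, the c-ring genes, the highest member of each complex and members at 0 UMIs, and others were chosen after their values were seen. The members, lists and gates were chosen with earlier results of these data known. The gate from Elane and Prtn3 and the ranges of UMIs were added after seeing values. The alternatives tried were the cell filter, equal weights, totals without abundant genes, thinning, other minimums and gates, and UMI ranges. Coordinates are from GENCODE M21 and sequences from RefSeq (GRCm38.p6).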

Additional observations from a re-analysis of the deposited data

Results flagged for a closer look

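In sums over cells, the mitochondrial and the nuclear genes went in opposite directions along Prss34 in the 2 libraries. With the gates as first chosen the nuclear ratio of Prss34-high over Prss34-low cells was 0.950 in the cKIT+ and 1.32 in the cKIT- library. With the Elane and Prtn3 gate it was 0.951 and 1.36. The mitochondrial ratio with the gates as first chosen was 0.765 in the cKIT+ and 1.30 in the cKIT- library. Neither difference between the libraries was tested, since each library is 1 sample, and the cKIT+ nuclear direction changed with the processing as given in the next part. Kit was at 48.7 CPM in the Prss34-low cells of the cKIT+ library and at 0 in those of the cKIT- library, so the cells set against the Prss34-high ones differed between the libraries.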

How the results depend on the processing

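Of 100 values recomputed for the ratios and counts of the 3 comparisons, 28 moved less than their counting interval (counts: less than 1.5-fold), 60 moved further in the same direction and 12 changed direction. The causes were not tested. No paired analysis was possible because each sort is 1 library and no test was run, and no replicate could be left out.

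Ratios are given as nuclear, then mitochondrial. For the sorts, equal weight for every cell gave 1.20 and 1.04, a total without Prss34, Mcpt8 and the 10 most abundant other genes 1.13 and 0.818, thinning to 2000 UMIs 1.21 and 0.907, and division by the median ratio of all genes 1.24 and 0.896. Leaving out cells over 10% mitochondrial gave a mitochondrial ratio of 0.852, and leaving out the 5% of cells with most UMIs a nuclear ratio of 1.20. Cells of 2000 to 4000 UMIs gave 0.986 and 1.46, of 4000 to 8000 UMIs 0.960 and 0.876, and of 8000 to 16000 UMIs 1.01 and 0.832. The 14 members toward cKIT+ became 7 at a fold of 2 and 7 between cells of 8000 to 16000 UMIs. The 1 member toward cKIT- became 0 at a fold of 2 and 0 after division by the median, and 2 between cells of 8000 to 16000 UMIs.

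For Prss34 in cKIT+ cells, where the nuclear ratio was 0.950, it turned to 1.03 with equal weights, 1.03 without abundant genes, 1.01 after thinning and 1.02 in cells of 4000 to 8000 UMIs with the Elane and Prtn3 gate. It was 0.978 in cells of 8000 to 16000 UMIs and 0.920 in cell-cycle-low cells. The cKIT+ mitochondrial ratio stayed below 1, at 0.696 with no cell filter, 0.525 with equal weights, 0.828 without abundant genes, 0.816 without cells over 10% mitochondrial, 0.757 after thinning, 0.818 with Prss34-high at 1%, 0.791 with the Elane and Prtn3 gate, 0.860 in cell-cycle-low cells, and 0.795 and 0.798 in the UMI ranges. In cKIT- cells both ratios stayed above 1. They were 1.29 and 1.22 with no cell filter, 1.30 and 1.33 with equal weights, 1.41 and 1.40 without abundant genes, 1.29 and 1.38 after thinning, 1.36 and 1.35 with the Elane and Prtn3 gate, and 1.18 and 1.48 in cell-cycle-low cells. The nuclear ratio was 1.30 with Prss34-high at 1%, and the mitochondrial one 1.33 without cells over 10% mitochondrial. The UMI ranges gave 1.16 and 1.54, then 1.17 and 1.16.

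For cell-cycle-high over cell-cycle-low cells of the cKIT+ library, no cell filter gave 1.23 and 0.783, equal weights 1.20 and 0.929, thinning 1.19 and 1.11, and the Elane and Prtn3 gate 1.20 and 0.893. The nuclear ratio was 1.20 without the 5% of cells with most UMIs. The mitochondrial one was 0.966 without cells over 10% mitochondrial and 0.915 with cycle-high at 0.2%. Cells of 2000 to 4000 UMIs gave 0.995 and 2.74, of 4000 to 8000 UMIs 1.11 and 1.21, and of 8000 to 16000 UMIs 1.13 and 0.896. Of 24 gated levels 22 moved when cells past several gates were left out, by up to 1.65-fold for the nuclear level of haemoglobin-rich cells. Doubling or halving the gate minimum moved levels by at most 1.10-fold, the most for the nuclear level of cKIT+ monocyte-gene cells.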
